A study of Homo sapiens with 24 samples.

Results

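Interferon-stimulated genes were followed on Illumina expression arrays of MDA-MB-231 cells, a human triple-negative, mesenchymal-like breast cancer line, after transfection of synthetic microRNA (miR) mimics or microRNA inhibitors. A list of 49 genes that type I interferon is known to induce was matched to the gene symbols of the array's probes, by name alone, although the list itself was drawn up with earlier results of these arrays known, and 48 of the 49 genes, of 20042 genes named on the array, had at least 1 probe. Of 47309 probes on the array 75 belonged to the list, and 66 of them, for 47 genes, were tested because the scanner's detection p stayed under 0.05 on each array of at least 1 group. STAT2 was not analysed here, and the only probe of CMPK2 reached no detection p below 0.0935 on any array. The nearest probes on either side of the detection limit were that of RSAD2, kept with a detection p of 0.0416 on its higher array in the miR-544a mimic group, and the second probe of OASL, left out with 0.0571 in the miR-135a inhibitor group.

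The 24 arrays formed 12 groups of 2. Cells of the NT control had received a non-targeting mimic that carries a fluorescent label and also served to gauge transfection. A mimic was given in 6 groups (miR-544a, miR-655-3p, miR-127-5p, miR-369-3p, miR-135a or miR-410), and an inhibitor in 5, one against each of these microRNAs except miR-127-5p. All oligonucleotides were given at 50 nM with the lipid reagent DharmaFECT 1, and RNA was taken at 48 h. No untransfected cells, cells given the reagent alone or cells given a control inhibitor were analysed here, so the reference for every group was itself a transfected RNA, and in the inhibitor groups the kind of oligonucleotide and its sequence cannot be told apart. Whether paired arrays came from different cultures is not in the labels, and p-values therefore cover the spread of these arrays only, which may be technical. A level is a background-corrected, quantile-normalised intensity on a linear scale, and fewer responding cells and less RNA per cell cannot be told apart in such bulk samples.

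Cells recognise double-stranded RNA in the endosome through TLR3 and in the cytosol through helicases such as IFIH1 (MDA5), through the 2'-5' oligoadenylate synthetases and through the kinase EIF2AK2 (PKR). The sensors and their adaptors switch on transcription factors of the IRF family and the type I and type III interferons, which act back on the same and neighbouring cells through the factor ISGF3, to which IRF9 belongs. ISGF3 binds a short promoter element, the interferon-stimulated response element, and induces antiviral genes, among them the sensors themselves. Some of these genes, IFIT2 and ISG15 among them, can also be induced by IRF3 or IRF7 without secreted interferon.

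The mimics are double-stranded RNAs whose guide strand has the sequence of the mature microRNA. The sequences of the 4 mimics whose labels name a single mature arm are given because the comparisons below set one transfected RNA against another, and capitals mark the seed, bases 2 to 8 from the 5' end (RefSeq, GRCh38.p14, plus strand of chromosome 14; chr14:100883001-100883022 for miR-127-5p, chr14:101065641-101065661 for miR-369-3p, chr14:101048712-101048733 for miR-544a and chr14:101049610-101049631 for miR-655-3p).
miR-127-5p: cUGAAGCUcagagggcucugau
miR-369-3p: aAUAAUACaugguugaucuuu
miR-544a: aUUCUGCAuuuuuagcaaguuc
miR-655-3p: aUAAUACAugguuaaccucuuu
miR-369-3p and miR-655-3p share a run of 13 bases, from base 2 of the former and base 1 of the latter, so that their seeds overlap with an offset, while the seeds of miR-127-5p and miR-544a match none of the others. The labels of miR-135a and miR-410 name no arm, and no sequence is given for them.

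At the promoters, the core of the interferon-stimulated response element was searched for on both strands as GAAA, any 2 bases and GAAA again, within 250 bases before to 50 bases after each start site in RefSeq (GRCh38.p14). It occurred for 29 of the 41 listed genes with a promoter in the table (70.7%) against 4.38% of all 27305 genes, and in 59.6% of the 57 promoter windows of the listed genes against 3.57% of all 35116 windows. The windows of 30 bases shown here belong to genes whose levels are described further on. They are written 5' to 3' on the gene's own strand (minus for IFIH1 and EPSTI1, plus for the others), and capitals mark the match, which reads TTTC, 2 bases and TTTC where the element lies on the opposite strand and runs longer where matches overlap.
ISG15, chr1:1013374-1013403: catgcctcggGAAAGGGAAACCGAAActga
ISG20, chr15:88638937-88638966: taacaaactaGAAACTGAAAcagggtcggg
IFIT1, chr10:89392497-89392526: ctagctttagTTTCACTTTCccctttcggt
IFIH1, chr2:162318824-162318853: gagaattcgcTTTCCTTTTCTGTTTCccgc
IFITM1, chr11:313990-314019: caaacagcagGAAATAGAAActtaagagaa
OAS3, chr12:112938321-112938350: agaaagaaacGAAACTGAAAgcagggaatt
EPSTI1, chr13:42992272-42992301: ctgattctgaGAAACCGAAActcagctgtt
A match is a description of the letters in the window and not of a bound factor. Of the 29 tested genes with a match 13 were called higher with the miR-544a mimic, and of the 10 tested genes whose windows hold none 5 were. A gene counts here if any of its probes was called, and 11.2% of all single probes tested were called higher with this mimic. The share among all genes with or without a match was not computed, so no conclusion on the element is drawn.

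Array quality was similar throughout, with median intensities of 101.7 to 123.1 and 19754 to 21286 probes detected per array. Arrays of 1 group correlated with r from 0.9798 in the miR-544a mimic group and 0.9874 in the miR-369-3p inhibitor group to 0.9967 across all probes, and no 2 arrays were identical. The interferon-stimulated genes showed the same difference in replicate agreement, since the mean absolute log2 difference between the 2 arrays was 0.407 over the 66 probes in the miR-544a mimic group and 0.338 in the miR-369-3p inhibitor group against 0.117 to 0.241 in the others. In the miR-544a mimic group 7 of the 66 probes lay more than 1 log2 unit apart, all lower on replicate 2, among them LGALS3BP with 1356 and 242. So did 3 in the miR-369-3p inhibitor group and 1 each in the miR-127-5p and miR-655-3p mimic groups, again all lower on replicate 2. The line's markers VIM, CD44, AXL and MSN were detected in all 12 groups, the leukocyte markers PTPRC and CD3E in none, and CD14 with 1 of its 2 probes in all 12. Of the genes expected to be low in this line, ESR1, PGR and CDH1 were detected in no group. ERBB2 was detected in all 12 by 1 probe, at 606 to 958, and by its other probes in none.

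The first question was whether different transfected RNAs left different levels of the interferon-stimulated genes. A moderated F test over the 6 mimic groups called 49 of the 66 probes, for 38 genes, as different in level (adjusted p under 0.05 with at least a 1.4-fold gap between the highest and the lowest group mean). That is 74.2% of the listed probes against a background of 50% of all 22803 probes tested. The miR-544a mimic gave the highest mean for 32 of the 49 and the miR-135a mimic the lowest for 18, whereas over all probes called by the same test these mimics held those places for 31.3% and 18.6%. The probes of TRIM22 and USP18 are among the 32, but passed the detection filter only through the miR-544a mimic group. The 5 inhibitor groups differed for only 5 probes, for EPSTI1, IFIT1, ISG20, OASL and SP100, or 7.58% against a background of 7.73%.

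Each mimic was then compared with the NT control, and a probe was called higher or lower with an adjusted p under 0.05 by limma, adjusted over all probes, and at least a 1.4-fold difference. Because all these comparisons share the same 2 NT arrays, their values are set side by side and not correlated. The miR-544a mimic raised 26 of the 66 probes, for 25 genes (39.4%, background 11.2%), and lowered 1, that of EPSTI1 (background 9.8%). The probe of TRIM22 is among the 26, although it passed the detection filter only through this group. With no detection filter 26 of 75 listed probes were called higher, against 9.12% of all probes called in either direction. SAM, the statistic of the study's methods, called 9 of the 66 higher and 0 lower with this mimic, against 4.38% of all probes called by it in either direction. The median log2 fold change of the listed probes was 0.28 with this mimic, with quartiles of -0.08 and 0.92, against 0.02 over all probes, and 44 of the 66 probes lay above 0.

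With the miR-135a mimic the listed genes moved in both directions. It lowered 16 probes, for 11 genes (24.2%, background 8.27%), and raised 11, for 10 genes (16.7%, background 8.14%), so that the median log2 fold change was only -0.04. The miR-127-5p mimic raised 12 probes (18.2%, background 7.75%) and lowered 4 (6.06%, background 8.02%). The miR-655-3p mimic raised 11 (16.7%, background 5.51%) and lowered 5 (7.58%, background 5.9%).

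Fewer probes passed with the remaining mimics. The miR-410 mimic raised 9 of the 66 (13.6%, background 3.46%) and lowered 5 (7.58%, background 4.1%). The miR-369-3p mimic raised 6 (9.09%, background 2.31%) and lowered 1, that of XAF1 (1.52%, background 2.76%). The share called higher lay above the background for each of the 6 mimics in this fit, while the share called lower lay above it for miR-135a, miR-410 and miR-655-3p. With median scaling in place of quantile normalisation the balance turned for the miR-410 mimic, to 2 higher and 6 lower, and shifted for miR-135a to 4 and 19. The plots of the called shares and of the medians show these values beside those of the inhibitor groups.

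**Figure D1:**
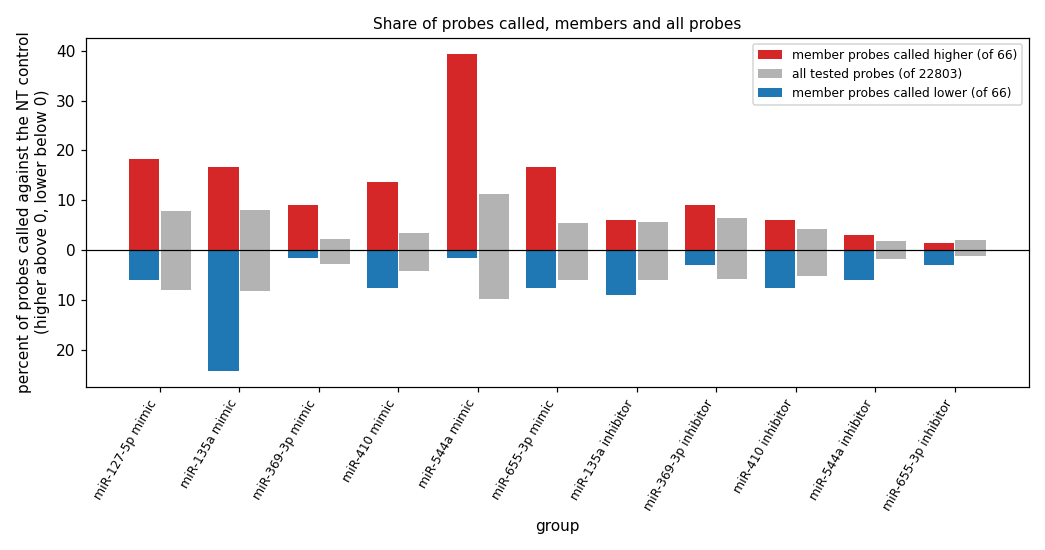
Percent of probes called against the NT control (y axis, called higher upwards and called lower downwards) in each mimic and inhibitor group (x axis), for the 66 probes of interferon-stimulated genes and for all 22803 probes tested. The share called higher with the miR-544a mimic is 39.4% for the listed genes and 11.2% for all probes.

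**Figure D2:**
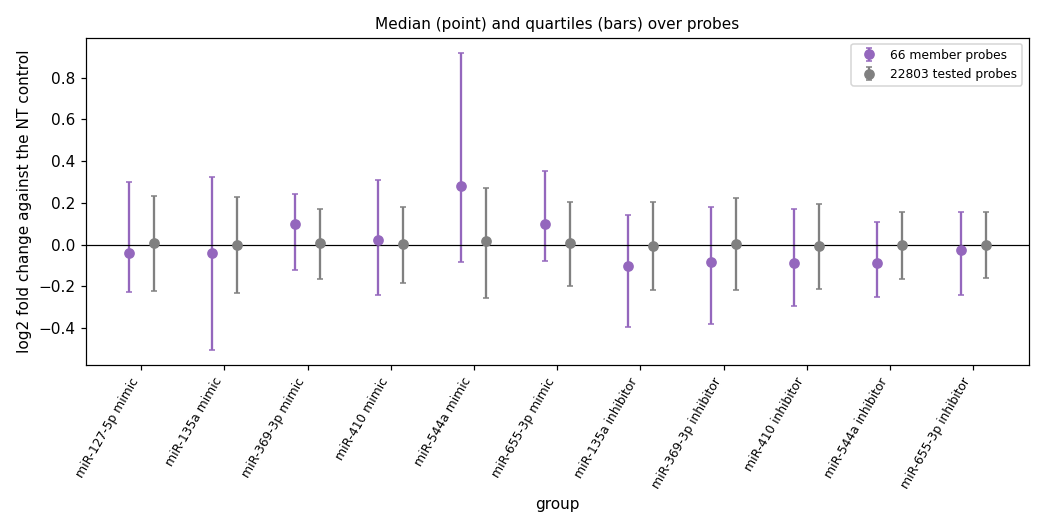
Median and quartiles of the log2 fold change against the NT control (y axis) in each group (x axis), for the 66 probes of interferon-stimulated genes and for all 22803 probes tested. The listed genes reach 0.28 with the miR-544a mimic and lie between -0.10 and 0.10 in the other groups.

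With 2 arrays a group, each call was also followed with 1 of its 4 arrays left out at a time, and a call is said here to hold where it passed both limits each time. How many calls over all probes held was not computed, so differences between groups in these counts may not be particular to the listed genes. For the miR-544a mimic 23 of 27 calls held, 22 of them higher, and those of IFITM2, MX2, PARP9 and PARP14 did not. For the miR-127-5p mimic 14 of 16 held. For the miR-135a mimic 15 of 27 held, of which 5 were higher (IFIT1, IFIT2, IFIT3, IFITM1 and OASL) and 10 lower.

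The remaining mimics held fewer. With miR-655-3p 8 of 16 calls held (IFIH1, IFIT1, IFIT3, ISG15, ISG20, OASL and TAP1 higher, XAF1 lower), with miR-410 6 of 14 (IFIT1, IFIT2, IFIT3, IRF7, ISG20 and OASL, all higher), and with miR-369-3p 4 of 7 (IFIT1, ISG15, ISG20 and OASL, all higher). The map of log2 fold changes shows all 66 probes by role.

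**Figure D3:**
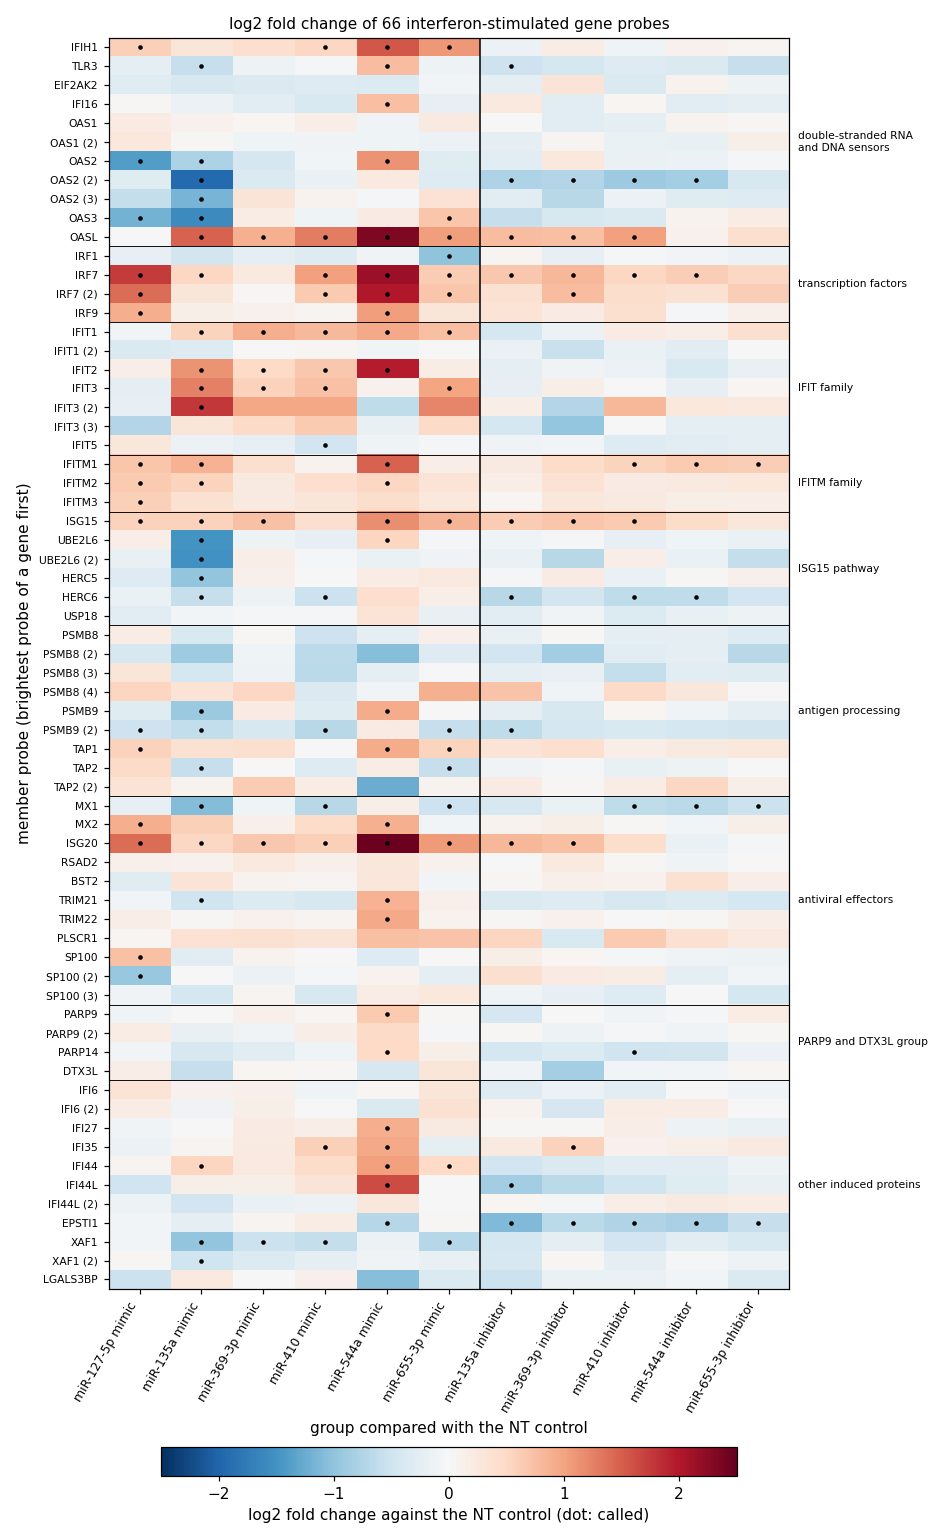
Log2 fold change against the NT control (colour) of each of the 66 tested probes of interferon-stimulated genes (rows, grouped by role) in the 6 mimic and 5 inhibitor groups (columns), with a dot where the probe was called. The column of the miR-544a mimic carries 26 dots for higher and 1 for lower levels, while that of the miR-135a mimic carries 11 and 16.

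Among the sensors of double-stranded RNA and DNA, 11 probes for 8 genes, the miR-544a mimic raised 5 probes and lowered 0 (backgrounds 11.2% and 9.8%), and the miR-135a mimic raised 1 and lowered 5 (backgrounds 8.14% and 8.27%). OASL, an oligoadenylate synthetase-like protein without synthetase activity that aids RNA sensing through RIG-I, was at 67.5 and 66.9 on the NT arrays and 367 and 312 on those of the miR-544a mimic (log2 fold change 2.33 ± 0.13 (SE), adjusted p = 4.59e-09 by limma). Its levels were 202 and 172 with the miR-135a mimic, 171 and 154 with miR-410, 140.1 and 136 after miR-655-3p and 128 and 119.6 after miR-369-3p, and log2 fold changes were 1.47, 1.27, 1.04 and 0.88 with adjusted p = 9.08e-07, 1.09e-05, 3.77e-05 and 6.15e-04 by limma. Both arrays of each of these 5 mimics lay above both NT arrays, and those of the miR-127-5p mimic, at 69.7 and 63.5, lay on either side of them (-0.01, adjusted p = 0.96). The 6 mimics differed with an adjusted p of 2.25e-08 in the F test, and the inhibitor arrays ranged from 67.2 to 139 (median 109).

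IFIH1, the cytosolic helicase that binds long double-stranded RNA, was at 143 and 159 in NT cells and 448 and 441 with the miR-544a mimic (log2 fold change 1.56 ± 0.12 (SE), adjusted p = 1.82e-07 by limma). The miR-655-3p mimic followed with 315 and 321 (log2 fold change 1.08 ± 0.12 (SE), adjusted p = 1.55e-05 by limma) and the miR-127-5p mimic with 214 and 244 (0.60, adjusted p = 0.00224). The arrays of these 3 mimics did not overlap with the NT arrays or with the inhibitor arrays, which ranged from 119 to 185 (median 156). The call with the miR-410 mimic (0.52) did not hold without NT replicate 1 (0.45, adjusted p = 0.138) or without miR-410 mimic replicate 2 (0.47, adjusted p = 0.0984).

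The oligoadenylate synthetases, which activate RNase L through their products, were called in opposite directions with different mimics for OAS2 and OAS3, while OAS1 was not called. OAS2 stood at 174 and 179.9 in NT cells by its brightest probe, at 361 and 409 with the miR-544a mimic (log2 fold change 1.12 ± 0.14 (SE), adjusted p = 2.78e-05 by limma), at 65.5 and 69.2 with miR-127-5p (log2 fold change -1.39 ± 0.14 (SE), adjusted p = 4.12e-06 by limma) and at 96.2 and 107 with miR-135a (-0.80, adjusted p = 8.04e-04). The arrays of the miR-544a mimic lay above, and those of the miR-127-5p and miR-135a mimics below, both NT arrays, and the F test over the mimics gave an adjusted p of 2.65e-08. The 2 dimmer probes of OAS2 did not follow the rise with miR-544a (0.25 and -0.04, neither called), whereas with the miR-135a mimic both fell below detection on both arrays, to levels at least 3.19-fold and 1.74-fold lower than in NT cells, the latter a call that did not hold without NT replicate 1 or miR-135a mimic replicate 2 (adjusted p = 0.0957 and 0.0547 by limma). With the miR-127-5p mimic neither dimmer probe was called, so the fall there rests on the brightest probe alone. The second probe was at 56.3 and 90.7 (88.2 and 89.1 in NT cells) and the third at 35.5 and 28.7 (56.2 and 41.4). The 3 probes can read different transcripts of the gene, and which transcript moved was not tested.

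OAS3 was at 286 and 301 in NT cells and fell to 98.6 and 95.2 with the miR-135a mimic (log2 fold change -1.60 ± 0.21 (SE), adjusted p = 3.84e-05 by limma) and to 131 and 129 with the miR-127-5p mimic (log2 fold change -1.17 ± 0.21 (SE), adjusted p = 6.42e-04 by limma). None of these arrays overlapped with the NT arrays, and the inhibitor arrays ranged from 180.2 to 377 (median 261). With the miR-655-3p mimic OAS3 was at 414 and 537 (0.69, adjusted p = 0.0356 by limma), a call that was lost without NT replicate 1, NT replicate 2 or miR-655-3p mimic replicate 2 (adjusted p = 0.168, 0.122 and 0.28). OAS1 lay near the detection limit in every group, at group means of 25.5 to 37.6 over its 2 tested probes, and EIF2AK2, which shuts down translation on double-stranded RNA, was bright at 814 and 792 in NT cells and was called in no comparison with them.

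Of the others, TLR3, the endosomal receptor, was at 46.0 and 40.7 in NT cells and 65.9 and 82.7 with the miR-544a mimic (log2 fold change 0.77 ± 0.16 (SE), adjusted p = 0.00207 by limma), and 26.8 and 31.2 with the miR-135a mimic, where only the second array was detected (log2 fold change -0.58 ± 0.16 (SE), adjusted p = 0.0177 by limma). The latter call was lost without NT replicate 1 or miR-135a mimic replicate 1 (adjusted p = 0.145 and 0.15 by limma). IFI16, a nuclear DNA sensor, rose only with the miR-544a mimic among the 11 comparisons with NT cells, from 747 and 713 to 1237 and 1211 (log2 fold change 0.75 ± 0.15 (SE), adjusted p = 0.00115 by limma). IFIH1, TLR3, OASL, OAS2 and IFI16 were thus the sensors called higher with miR-544a, and their calls held.

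**Figure D4:**
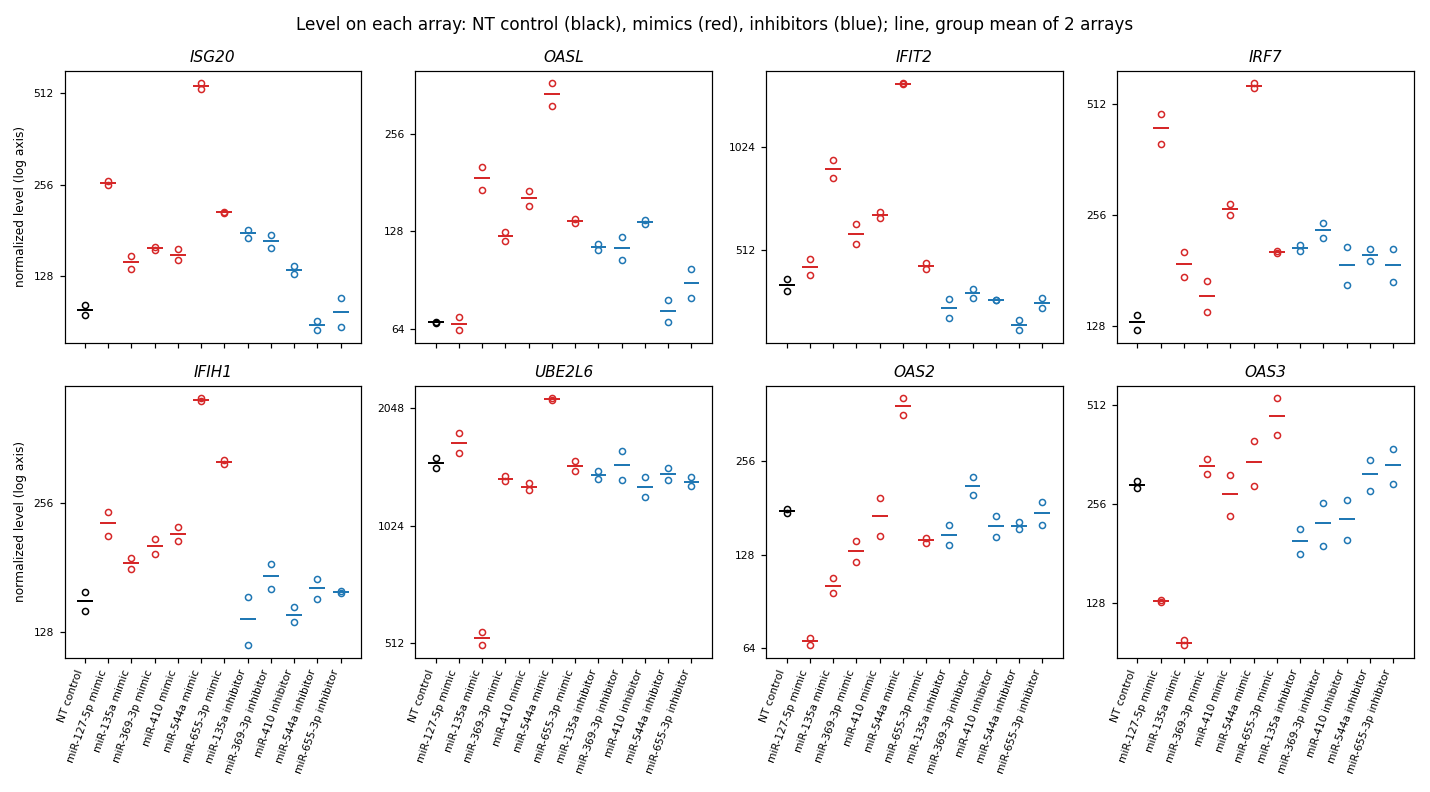
Level on each array (y axis, log scale, normalised intensity) of ISG20, OASL, IFIT2, IRF7, IFIH1, UBE2L6, OAS2 and OAS3 in the 12 groups (x axis; NT control black, mimics red, inhibitors blue), with a line at the mean of the 2 arrays. The miR-544a mimic arrays lie highest for ISG20 and IRF7, while the miR-135a mimic arrays lie lowest for UBE2L6 and OAS3.

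Of the transcription factors, IRF7 and IRF9 were higher with several mimics, while IRF1 was called in a single comparison, and lower. IRF7, the factor that amplifies type I interferon production once it has been induced, was at 124 and 137 in NT cells. It reached 565 and 583 with the miR-544a mimic (log2 fold change 2.14 ± 0.14 (SE), adjusted p = 3.16e-08 by limma), 399 and 481 with miR-127-5p (log2 fold change 1.75 ± 0.14 (SE), adjusted p = 3.38e-07 by limma) and 274 and 256 with miR-410 (log2 fold change 1.02 ± 0.14 (SE), adjusted p = 2.24e-04 by limma). The second, dimmer IRF7 probe moved the same way (1.99, 1.39 and 0.65), although its call with miR-410 did not hold without any 1 of the 4 arrays. No array of these mimics overlapped with the NT arrays, whose mean was the lowest of the 12 groups for both probes.

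The inhibitor groups held more IRF7 signal than the NT control as well, at 165 to 243 (median 207) by the brighter probe, and 4 of 5 were called higher. The mean of the 5 inhibitor groups lay 0.63 ± 0.11 (SE) log2 units above NT (adjusted p = 0.00116 by limma). Against that mean the miR-544a mimic was still 1.51 log2 units higher (adjusted p = 4.61e-08) and the miR-127-5p mimic 1.12 (adjusted p = 1.15e-06), whereas the miR-410 mimic stood at 0.39 (adjusted p = 0.0329) and the miR-655-3p mimic, called against NT with 0.64, at 0.01 (adjusted p = 0.972). The miR-135a mimic changed sign, from 0.52 against NT cells to -0.11 against the inhibitor groups.

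IRF9, the DNA-binding subunit of ISGF3, rose from 440.5 and 408 in NT cells to 821 and 928 with the miR-544a mimic (log2 fold change 1.04 ± 0.12 (SE), adjusted p = 8.92e-06 by limma) and to 842 and 758 with the miR-127-5p mimic (log2 fold change 0.91 ± 0.12 (SE), adjusted p = 4.56e-05 by limma). Both calls held, and no other group was called for IRF9. IRF1, which can induce many of the listed genes by itself, was at 1012 and 1099 in NT cells and 624 and 445 with the miR-655-3p mimic (log2 fold change -1.0 ± 0.23 (SE), adjusted p = 0.00666 by limma), a call lost without NT replicate 2 (adjusted p = 0.0607) or miR-655-3p mimic replicate 2 (adjusted p = 0.105).

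The IFIT proteins bind viral RNAs by their 5' ends, and 7 probes for 4 genes were tested. IFIT1, IFIT2 and IFIT3 rose with several mimics. With miR-127-5p 0 of the 7 probes were called in either direction, a count near the backgrounds of 7.75% higher and 8.02% lower. IFIT2 was at 419 and 388 in NT cells, at 1559 and 1569 with the miR-544a mimic (log2 fold change 1.95 ± 0.11 (SE), adjusted p = 3.42e-09 by limma), at 938 and 828 with miR-135a (log2 fold change 1.13 ± 0.11 (SE), adjusted p = 1.62e-06 by limma) and at 634 and 659.6 with miR-410 (log2 fold change 0.68 ± 0.11 (SE), adjusted p = 5.44e-04 by limma). Arrays of these 3 mimics lay above both NT arrays and above all inhibitor arrays, which ranged from 297 to 394 (median 364). Under median scaling in place of quantile normalisation the call with miR-410 was lost (0.37, adjusted p = 0.308 by limma). The call with miR-369-3p (0.49) was lost without NT replicate 2 (adjusted p = 0.119) or its own replicate 1 (adjusted p = 0.16). With miR-127-5p and miR-655-3p IFIT2 stood at 432 and 479.7 and 450.1 and 468 (0.17 and 0.19, adjusted p = 0.296 and 0.296 by limma).

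IFIT1 was raised by 5 of the 6 mimics. It was at 716 and 695 in NT cells, and the log2 fold changes of its bright probe were 0.94 with miR-544a, 0.90 with miR-369-3p, 0.81 with miR-410, 0.75 for miR-655-3p and 0.56 with miR-135a (adjusted p = 1.42e-05, 1.56e-04, 2.21e-04, 2.33e-04 and 0.00223 by limma), all of which held. It was at 697 and 649 with the miR-127-5p mimic (-0.07, adjusted p = 0.752) and from 491 to 1047 (median 788) on the inhibitor arrays. Under median scaling the call of the bright probe with miR-410 was lost (adjusted p = 0.0835 by limma). The second IFIT1 probe was detected in 4 groups and called in none.

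IFIT3 behaved differently from IFIT2 with the same mimics. Its brightest probe rose from 396 and 454 in NT cells to 954 and 1072 with miR-135a (log2 fold change 1.25 ± 0.13 (SE), adjusted p = 5.68e-06 by limma), 826 and 852 with miR-655-3p (log2 fold change 0.98 ± 0.13 (SE), adjusted p = 8.47e-05 by limma) and 801 and 623 with miR-410 (0.74, adjusted p = 0.00204). With the miR-544a mimic, which gave the highest IFIT2, it was at 458 and 452 (log2 fold change 0.10 ± 0.13 (SE), adjusted p = 0.633 by limma). The 2 other IFIT3 probes lay at -0.63 and -0.18 with miR-544a, and 230.1 and 98.6 on the 2 arrays for the second probe, so that IFIT3 was among the probes on which those arrays disagreed. The call of the brightest probe with miR-369-3p (0.58) was lost without NT replicate 1 or either mimic array (adjusted p from 0.0651 to 0.173 by limma). IFIT5 was called only with the miR-410 mimic (-0.49), and not without any 1 of the 4 arrays.

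The IFITM proteins block viral entry at the membrane, and their 3 genes are near-identical paralogs on chromosome 11 whose probes could read each other's transcripts, so their separate values are uncertain. IFITM1 was at 193 and 194 in NT cells and rose to 524 and 556 with the miR-544a mimic (log2 fold change 1.48 ± 0.12 (SE), adjusted p = 2.14e-07 by limma), 387 and 323 with miR-135a (log2 fold change 0.87 ± 0.12 (SE), adjusted p = 6.20e-05 by limma) and 319 and 304 with miR-127-5p (log2 fold change 0.69 ± 0.12 (SE), adjusted p = 5.42e-04 by limma). The inhibitor arrays, at 209 to 307 (median 294), lay above both NT arrays, and their highest array lay between the 2 miR-127-5p mimic arrays. Against the mean of the inhibitor groups the difference was 0.98 for miR-544a (adjusted p = 6.72e-07 by limma), 0.37 for miR-135a (adjusted p = 0.00687) and 0.19 for miR-127-5p (adjusted p = 0.141).

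IFITM2 and IFITM3 were the brightest listed genes, at 4093 and 4304 and at 4389 and 4360.4 in NT cells. The miR-127-5p mimic raised both (0.66 and 0.60, adjusted p = 1.82e-04 and 4.01e-04 by limma). IFITM2 was also called higher with miR-135a (0.56) and miR-544a (0.51), and neither call held, the former without miR-135a mimic replicate 1 (0.48) and the latter without NT replicate 1 (0.47) or miR-544a mimic replicate 2 (0.46), each then under the 1.4-fold limit. The NT arrays had the lowest mean of the 12 groups for all 3 IFITM genes.

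ISG15 is a ubiquitin-like protein that UBE2L6, its conjugating enzyme, and HERC5, its ligase, attach to newly made proteins. The modifier and its enzymes did not move together. ISG15 itself was at 1217 and 1329.8 in NT cells and at 2798 and 2871 with the miR-544a mimic (log2 fold change 1.16 ± 0.12 (SE), adjusted p = 2.93e-06 by limma), 2402 and 2192 with miR-655-3p (0.85, adjusted p = 1.17e-04) and 2042 and 2214 with miR-369-3p (0.74, adjusted p = 0.00133). The NT mean was the lowest of the 12 groups, the inhibitor arrays ranged from 1512 to 2315 (median 1927), and only the miR-544a mimic stayed called against the mean of the inhibitor groups (0.61, adjusted p = 1.01e-04 by limma). The call with the miR-135a mimic (0.57) was lost without its replicate 1 (0.47), while that with miR-127-5p (0.58) held.

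UBE2L6 fell from 1444 and 1531 in NT cells to 547 and 506 with the miR-135a mimic (log2 fold change -1.50 ± 0.11 (SE), adjusted p = 1.03e-07 by limma), and its second probe fell as far (-1.52, adjusted p = 0.00445). The lowest of the 10 inhibitor arrays lay at 1214, above both of those arrays. With the miR-544a mimic the bright probe was at 2176 and 2145 (log2 fold change 0.54 ± 0.11 (SE), adjusted p = 0.00119 by limma), and the second probe was not called (-0.16), with 315 and 134.5 on the 2 arrays. The other 4 mimics were called for neither UBE2L6 probe.

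HERC5 followed UBE2L6 with the miR-135a mimic alone, from 804 and 828 in NT cells to 405 and 414 (log2 fold change -1.0 ± 0.13 (SE), adjusted p = 2.91e-05 by limma), and was called in no other comparison with NT cells. HERC6, a related ligase, was lower with miR-135a (-0.58, adjusted p = 0.00342) and with miR-410 (-0.54), the latter a call lost without any 1 of the 4 arrays. USP18, which removes ISG15 and damps the interferon receptor, was detected on both arrays of the miR-544a mimic group alone, at 32.0 and 33.9, and was not called there (0.34, adjusted p = 0.0984 by limma).

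Of the antigen-processing genes, TAP1 and PSMB9 are neighbours in the MHC region, and encode a subunit of the peptide transporter and a subunit of the immunoproteasome. TAP1 was at 1835 and 1876 in NT cells and rose to 3321 and 3744 with miR-544a (log2 fold change 0.93 ± 0.10 (SE), adjusted p = 3.05e-06 by limma), 2734 and 2798 with miR-127-5p (0.58, adjusted p = 4.15e-04) and 2664 and 2819 with miR-655-3p (0.56, adjusted p = 7.20e-04). PSMB9 rose from 764 and 762 to 1418 and 1493 with miR-544a (log2 fold change 0.93 ± 0.16 (SE), adjusted p = 4.34e-04 by limma) and fell to 458 and 351 with miR-135a (log2 fold change -0.93 ± 0.16 (SE), adjusted p = 5.79e-04 by limma). Both PSMB9 calls held, and the arrays of both mimics were separate from those of the NT control.

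The second PSMB9 probe was called lower with the miR-127-5p, miR-135a, miR-410 and miR-655-3p mimics (-0.52, -0.61, -0.69 and -0.58), and each of these calls was lost without NT replicate 2 (adjusted p = 0.364, 0.214, 0.221 and 0.327 by limma), on which the probe was at 102 against 75.0 on replicate 1. TAP2, the other transporter subunit, was called lower with miR-135a and miR-655-3p (-0.58 and -0.58), and neither call held without NT replicate 2 (adjusted p = 0.0595 and 0.0763). The 4 calls of that PSMB9 probe and the 2 of TAP2 were lost without replicate 1 of the mimic too. None of the 4 PSMB8 probes was called against the NT control with any mimic or inhibitor.

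ISG20 and the other antiviral effectors made up 11 probes for 9 genes. ISG20, an exonuclease that degrades single-stranded RNA, had the lowest adjusted p of all listed genes in the F test over the mimics (6.33e-09). It was at 95.2 and 103 in NT cells, 531 and 554 with the miR-544a mimic (log2 fold change 2.45 ± 0.11 (SE), adjusted p = 5.20e-10 by limma), 255 and 264 with miR-127-5p (log2 fold change 1.39 ± 0.11 (SE), adjusted p = 2.12e-07 by limma) and 209 and 207 with miR-655-3p (log2 fold change 1.07 ± 0.11 (SE), adjusted p = 4.76e-06 by limma). With miR-369-3p, miR-410 and miR-135a it stood at 160.5 and 156, 157 and 144 and 149.6 and 136 (adjusted p = 0.00133, 0.00201 and 0.00259). The 12 mimic arrays all lay above both NT arrays, and only the call with miR-135a (0.52) did not hold, falling under the 1.4-fold limit without NT replicate 1 (0.46) or miR-135a mimic replicate 1 (0.45).

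Inhibitor arrays ranged widely for ISG20, from 85.1 to 182 (median 134), and differed between groups (F test over the inhibitors, adjusted p = 5.76e-05 by limma). The inhibitors of miR-135a and miR-369-3p gave 172 and 182 and 159 and 175, both called higher than NT (0.84 and 0.75), and those of miR-544a and miR-655-3p 91.3 and 85.1 and 87.3 and 109 (-0.17 and -0.03, adjusted p = 0.492 and 0.953). Against the mean of the inhibitor groups only the miR-544a (2.08), miR-127-5p (1.02) and miR-655-3p (0.70) mimics stayed called for ISG20.

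MX1, a dynamin-like GTPase that traps viral nucleocapsids, was called higher than in NT cells with no mimic. It was at 630.5 and 657 in NT cells, 646 and 785 with miR-544a (log2 fold change 0.15 ± 0.14 (SE), adjusted p = 0.492 by limma) and 311 and 294 with miR-135a (log2 fold change -1.09 ± 0.14 (SE), adjusted p = 3.75e-05 by limma). The inhibitor arrays ranged from 394 to 654 (median 454), and against the mean of the inhibitor groups MX1 was called higher with miR-544a. The lower calls with miR-410 (-0.70) and miR-655-3p (-0.51) did not hold, the former without miR-410 mimic replicate 1 (adjusted p = 0.0715) and the latter without any 1 of the 4 arrays. MX2, its paralog that acts at the nuclear pore, was dim, at 33.8 and 33.1 in NT cells, and was called higher with miR-127-5p (0.90) and miR-544a (0.89), but not without replicate 2 of either mimic (adjusted p = 0.0606 and 0.0975).

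Of the TRIM proteins, TRIM21, a cytosolic antibody receptor, rose from 334 and 305 to 480.2 and 699.5 with miR-544a (log2 fold change 0.86 ± 0.16 (SE), adjusted p = 7.47e-04 by limma), and its lower call with miR-135a (-0.49) was lost without any 1 of the 4 arrays. TRIM22 was detected on both arrays of the miR-544a mimic group alone, at 36.3 and 44.1, at least 1.50-fold above NT cells, where it was not detected on either array. It passed the detection filter only through that group, so its call there is not independent of the filter. SP100, a nuclear body protein, gave opposite calls by probe with miR-127-5p, 0.73 for the brightest and -0.94 for the second, and no call with any other mimic against NT cells.

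Several widely used markers of an interferon response were low or did not move. RSAD2 (viperin) was detected on both arrays of 1 group, with miR-544a, at 27.4 and 28.6, and was not called (0.29, adjusted p = 0.177 by limma). BST2 (tetherin), which holds budding virions at the surface, was at 993 and 966 in NT cells and was called in no comparison with them, and PLSCR1, a scramblase, in none either.

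PARP9 and DTX3L form a complex that modifies histones and viral proteins, and PARP14 is a related ADP-ribosyltransferase. PARP9 and PARP14 were called higher with the miR-544a mimic only (0.65 and 0.50), and neither call held without replicate 2 of that mimic (0.34 and 0.35, adjusted p = 0.225 and 0.122 by limma). DTX3L was at 66.1 and 69.2 in NT cells and was called in no comparison with them.

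The remaining 8 induced genes were read by 11 probes, of which 4 were called higher and 1 lower with miR-544a (backgrounds 11.2% and 9.8%). The median log2 fold change of the 11 probes was 0.04. IFI44L and IFI44, neighbouring genes for cytosolic proteins, went from 61.4 and 63.0 to 181 and 207 (log2 fold change 1.64 ± 0.23 (SE), adjusted p = 6.86e-05 by limma) and from 409 and 429 to 878 and 839 (log2 fold change 1.03 ± 0.11 (SE), adjusted p = 3.32e-06 by limma), although the second IFI44L probe was not called (0.28). IFI27, a mitochondrial protein, rose from 893 and 845 to 1644 and 1602 (log2 fold change 0.90 ± 0.13 (SE), adjusted p = 5.90e-05 by limma) and IFI35 from 312 and 340.3 to 577 and 687 (log2 fold change 0.95 ± 0.12 (SE), adjusted p = 2.30e-05 by limma). All 4 calls held, whereas that of IFI35 with miR-410 (0.60) was lost without NT replicate 1 (0.53, past the adjusted p limit). The call of IFI44 with miR-135a (0.53) was lost without replicate 1 of the mimic (0.47). That of IFI44 with miR-655-3p (0.50) was lost without NT replicate 1 (0.47) or replicate 2 of the mimic (0.47). IFI6, read by 2 probes, and LGALS3BP were called in no comparison with NT cells, LGALS3BP at -1.07 with miR-544a (adjusted p = 0.116).

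XAF1, which promotes apoptosis, was called lower with 4 of the 6 mimics, as was PSMB9. Its bright probe was at 293 and 307 in NT cells and at 158 and 147 with miR-135a, 187 and 177 after miR-655-3p, 186 and 215 after miR-410 and 215 and 199 with miR-369-3p (-0.98, -0.72, -0.59 and -0.54, adjusted p = 1.24e-05, 3.02e-04, 0.00314 and 0.00899 by limma). The first 2 calls held, while that with miR-410 was lost without its replicate 1 (-0.48). That with miR-369-3p was lost without either NT array (-0.57 and -0.50, both past the adjusted p limit) or its own replicate 2 (-0.48). The NT arrays gave the highest mean of the 12 groups for this probe, and the second XAF1 probe, near the detection limit, was called with miR-135a alone (at least 1.13-fold lower) and lost without any 1 of the 4 arrays.

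The inhibitor groups were compared with the same 2 NT arrays. The listed probes called higher and lower numbered 4 and 6 in the miR-135a inhibitor group (backgrounds 5.67% and 5.97%), 6 and 2 in that of miR-369-3p (6.42% and 5.87%), 4 and 5 for miR-410 (4.15% and 5.16%), 2 and 4 for miR-544a (1.92% and 1.85%) and 1 and 2 for miR-655-3p (1.97% and 1.25%). The medians of the listed probes lay between -0.10 and -0.03. The calls that held without each array in turn were 6 of 10, 5 of 8, 5 of 9, 2 of 6 and 1 of 3, in the same order.

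EPSTI1, a stromal-interaction protein, was called lower by every inhibitor. It was at 226 and 212 in NT cells, from 98.3 to 152 on the 10 inhibitor arrays (median 131) and at 131 and 134.7 with the miR-544a mimic. No inhibitor array and no miR-544a mimic array reached the NT arrays, while those of the other 5 mimics stood between 173 and 255 and were not called. The log2 fold change was -1.10 with the miR-135a inhibitor, -0.80 with that of miR-544a, -0.75 with miR-410, -0.66 for miR-369-3p and -0.57 for miR-655-3p (adjusted p = 1.04e-06, 8.19e-05, 8.36e-05, 2.50e-04 and 0.00201 by limma), and all 5 calls held. With the miR-544a mimic it was -0.72 (adjusted p = 3.24e-05), which held too, but against the mean of the inhibitor groups this mimic was at 0.06 (adjusted p = 0.556).

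The mean of the 5 inhibitor groups differed from the NT control for 8 listed probes, 5 higher (7.58%, background 3.6%) and 3 lower (4.55%, background 3.6%). Higher were both IRF7 probes (0.63 and 0.52), OASL (0.61), ISG15 (0.55) and IFITM1 (0.50), while lower levels were found for EPSTI1 (-0.78), the second OAS2 probe (-0.73) and HERC6 (-0.58). Over all 12 groups the NT control had the lowest mean for 8 of the 66 probes (12.1%, against 7.35% of all probes), for IFITM1, IFITM2, IFITM3, IRF7, ISG15, TAP1 and TRIM22, and the highest for 2 (3.03%, against 6.9%), of PSMB8 and XAF1.

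**Figure D5:**
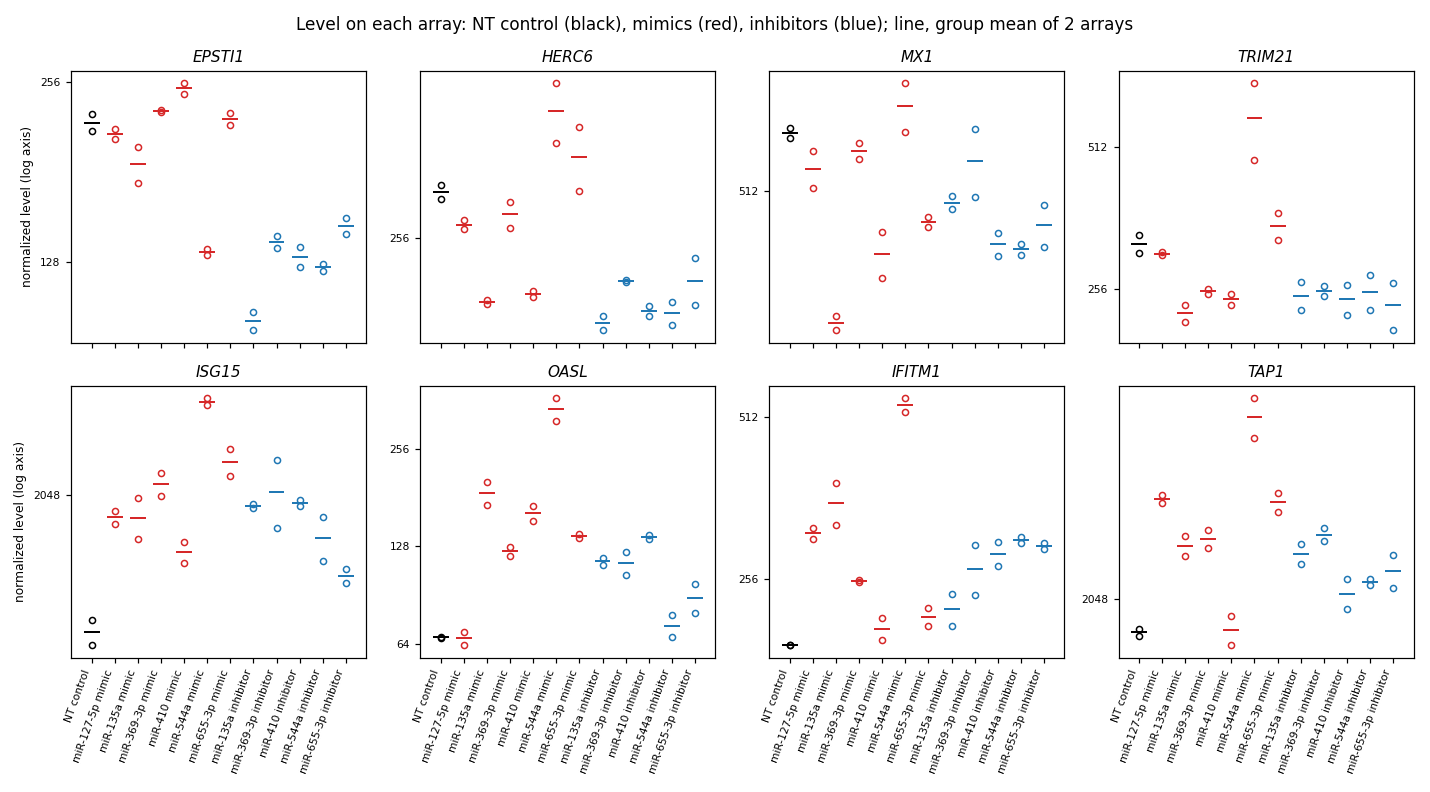
Level on each array (y axis, log scale, normalised intensity) of EPSTI1, HERC6, MX1, TRIM21, ISG15, OASL, IFITM1 and TAP1 in the 12 groups (x axis; NT control black, mimics red, inhibitors blue), with a line at the mean of the 2 arrays. For EPSTI1 all 10 inhibitor arrays lie below the NT arrays, and for IFITM1 all 10 lie above them.

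Because the NT control stood apart from the inhibitor groups for these genes, each mimic was also compared with the mean of the 5 inhibitor groups, 10 arrays that received another kind of oligonucleotide. The miR-544a mimic then raised 31 of the 66 probes (47%, background 10.3%) and lowered 1 (background 10.2%). The miR-655-3p mimic raised 11 (background 6.01%) and lowered 3 (background 5.91%), the miR-127-5p mimic 11 (background 9%) and 4 (background 9.08%), and the miR-135a mimic 9 (background 6.99%) and 12 (background 6.7%). The miR-410 mimic raised 10 (background 2.43%) and the miR-369-3p mimic 6 (background 1.68%), and each lowered 0 (backgrounds 3.14% and 1.75%).

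With this reference IFIT1 and IFIT3 stayed higher with the miR-135a, miR-369-3p, miR-410 and miR-655-3p mimics, while IFI44 was called higher with all of these and miR-544a, of which miR-369-3p and miR-410 had not been called against the NT control. OASL was called higher than NT with the inhibitors of miR-135a, miR-369-3p and miR-410, but not with those of miR-544a and miR-655-3p. Against the mean of the inhibitor groups it lay at 1.72 with the miR-544a mimic (adjusted p = 3.75e-09 by limma) and 0.86 with the miR-135a mimic (adjusted p = 1.08e-05), but at -0.63 with the miR-127-5p mimic (adjusted p = 1.59e-04). UBE2L6 and OAS3 remained low with miR-135a, at -1.38 and -1.39 (adjusted p = 7.23e-09 and 8.88e-06).

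Upstream of the listed genes, the probes of the ligands IFNB1, IFNA1, IFNA2, IFNE, IFNG and IFNL1 to IFNL3 were detected on both arrays of no group, the miR-544a mimic included. The receptor chains IFNAR1, IFNGR1, IFNGR2 and IL10RB were detected in all 12 groups, as were 2 of the 3 probes of IFNAR2, while the 2 probes of IFNLR1 were detected in 6 and 2. Against NT cells, IFNAR1 rose with the miR-127-5p mimic (0.75, adjusted p = 7.46e-04 by limma) and fell with miR-410 (-1.07, adjusted p = 8.23e-05), and IFNAR2 was lower with miR-410 by both of its tested probes (-0.60 and -0.56).

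Signal carriers between sensor or receptor and promoter were read by 19 probes for 15 of 20 genes, of which 6 were higher and 0 lower in the miR-544a mimic group (backgrounds 11.2% and 9.8%), 5 and 1 in that of miR-655-3p (backgrounds 5.51% and 5.9%), and at most 3 and 4 in any other mimic group. ZC3HAV1, an RNA-binding antiviral protein of another list, rose by the 1 of its 3 probes with the largest changes, chosen after its values were seen, with miR-544a (1.62, adjusted p = 8.32e-08 by limma) and miR-655-3p (1.23, adjusted p = 2.56e-06). The other 2 probes of ZC3HAV1 lay at 0.93 and 0.55 with miR-544a, both called, and at 0.84 and -0.05 with miR-655-3p, the first called. MAVS, the adaptor of the RNA helicases, was called higher by 1 of its 2 probes in all 11 groups, with log2 fold changes from 0.62 to 1.18, and by the other in none. Of the brakes on the pathway, 8 probes for 5 genes, 1 was higher and 3 were lower with miR-544a, 0 and 2 each with miR-127-5p (backgrounds 7.75% and 8.02%) and miR-135a (backgrounds 8.14% and 8.27%), and none with the other mimics or the inhibitors. The calls with miR-544a were SOCS1 (0.96), SOCS3 (-1.10), the phosphatase PTPN2 (-1.14) and the RNA editor ADAR (-0.52), each by 1 probe, and those with miR-127-5p and miR-135a were both probes of ADAR.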

How the data were processed

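RNA of 24 MDA-MB-231 cultures or extracts, in 12 groups of 2, had been hybridised to Illumina HT12 v4 BeadChips. The authors deposited a table of probe intensity values without background correction, each with the scanner's detection p-value, and a second table of their background-subtracted, quantile-normalised values, of which the log2 was taken here as an alternative. From the intensities, neqc of limma 3.58.1 (R 4.3.3) inferred the background from the detection p-values, added an offset of 16, quantile-normalised the arrays and gave log2 levels, and levels in the text are these on a linear scale. Probes were kept where some group had a detection p under 0.05 on each of its arrays (22803 of 47309). One linear model of 12 group means was fitted (residual df 12), and p-values were adjusted by Benjamini-Hochberg over all kept probes. A call needed an adjusted p under 0.05 and at least a 1.4-fold difference, after the thresholds of the study's methods, whose statistic, SAM, was run as an alternative. Group replicates were numbered by the labels. Over the 66 pairs of groups the replicate differences correlated between -0.48 and 0.52 (median 0.04, 27 pairs over 0.1). Some groups thus shared replicate differences. Whether equal numbers mark arrays handled together was not tested, and the main model held no replicate term.

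The 49 genes and the other gene lists were chosen with earlier results of these data known. Values on every array were to be given for the 8 probes with the lowest adjusted p among the mimics and the 8 with the lowest against the NT control, at most 1 a gene; the other probes were named after their values were seen. Where a group was undetected on both arrays the fold is a bound, the bright group's mean against the dim group's mean of, per array, the higher of the dim probe's own level and the lowest level among detected probes. On simulated data limma recovered 41 of 50 probes raised by 1 log2 unit and 44 of 50 lowered by 1 for the miR-544a mimic over 22803 probes, with 14 false calls. SAM recovered 20 and 12 of the same probes, with 2 false calls. The changed probes all lay above the median NT level, and every other value was drawn around the NT mean. The recovery therefore does not describe dim probes or a mimic that changes many probes. Other settings tried were no background correction, the authors' values, median scaling, other filters, a replicate block, the inhibitor groups as reference and each array left out. Figures were drawn with matplotlib 3.10.9 in Python 3.11.15.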

Additional observations from a re-analysis of the deposited data

How the results depend on the processing

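The call counts of the miR-544a and miR-127-5p mimics stayed within 1.5 times under every setting except SAM, which called 9 with miR-544a (27 otherwise); the cause was not tested. Without background correction the calls numbered 17 against 27 for the miR-135a mimic, 3 against 7 for miR-369-3p and 6 against 14 for miR-410, 4 against 10, 2 against 8, 3 against 9, 2 against 6 and 0 against 3 for the inhibitors (that of miR-135a first, then those of miR-369-3p, miR-410, miR-544a, miR-655-3p), 2 against 8 for their mean and 2 against 5 among them. These are counts, and the probes behind them need not be the same. Median scaling gave 4 against 7 for the miR-369-3p mimic, 8 against 14 for miR-410, 8 against 16 for miR-655-3p, 5 against 8, 5 against 9, 2 against 6 and 0 against 3 for the inhibitors of miR-369-3p, of miR-410, of miR-544a and of miR-655-3p, and 2 against 5 among inhibitors. It shifted the median of all probes by -0.18 for the miR-135a mimic, -0.19 for miR-410 and -0.11 for the miR-544a inhibitor, and the lower and higher calls became 19 and 4 for miR-135a (16 and 11 otherwise), 6 and 2 for miR-410 (5 and 9), and 5 and 1 for the mean of the inhibitors (3 and 5). SAM called 8, against 14, for the miR-410 mimic.

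Leaving out 1 array at a time gave 16 to 25 calls for the miR-135a mimic (16 without its replicate 1), 9 to 10 for miR-410 (9 without NT replicate 1), 10 to 12 for miR-655-3p (10 without NT replicate 2 or its own replicate 2) and 23 to 35 for miR-544a. For the inhibitors it gave 6 to 17 for miR-369-3p (17 without its replicate 1), 2 to 5 for miR-544a (2 without NT replicate 1 or its replicate 2, 3 without NT replicate 2), 1 to 3 for miR-655-3p (1 without either NT array or its replicate 2) and 3 to 15 among inhibitors (3 without replicate 2 of the miR-135a or miR-655-3p inhibitor, 15 without replicate 1 of the miR-369-3p inhibitor). With a replicate block the counts were 27 for the miR-544a mimic, 27 for miR-135a, 13 for miR-410 and 2 for the miR-655-3p inhibitor, and the other counts moved by at most 1.

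Of 79 pairs of a named probe and a comparison, 30 kept their call under every setting run for them, which SAM was not, 49 lost it under at least 1 and 25 without some array. Against the inhibitor groups EPSTI1 with the miR-544a mimic turned from -0.72 to 0.062 and IRF7 with the miR-135a mimic from 0.52 to -0.11. The 2 arrays a group limit the precision, and probes near the detection level of 26.3 to 28.3 carry compressed folds. A chip could not be used as a block, since no header names one.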

Other observations

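Other genes known to be induced by interferon, outside the 49, were counted in the same way. Of 31 probes for 22 genes, 10 were higher and 1 lower with the miR-544a mimic (median log2 fold change 0.32), 5 and 4 with miR-655-3p, and 1 and 5 with miR-135a, where the shares of all probes called higher and lower were 11.2% and 9.8%, 5.51% and 5.9%, and 8.14% and 8.27%. With miR-544a the class I molecules HLA-B (0.76) and HLA-F (0.96 and 0.76) were higher, as were IFI30, a lysosomal reductase of antigen processing (0.95), and DDX60, a helicase (0.81). The DNA sensor AIM2 (1.27) was higher too, but belongs to the signal carriers counted above and not to these 31 probes. The inhibitors raised 0 of these 31 probes and lowered 2 to 6, where each called 1.92% to 6.42% of all probes higher and 1.25% to 5.97% lower.

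Of the guanylate-binding proteins, which act against pathogens inside cells, GBP1 was called lower by 1 probe in 9 of 11 comparisons with NT cells and by the other in 6, the former with -1.89 for the miR-135a mimic and -0.98 for miR-410. GBP2 fell with miR-135a (-1.13, adjusted p = 4.03e-07 by limma) and rose with miR-544a (0.66, adjusted p = 5.95e-05). ADAR, the enzyme that edits double-stranded RNA, fell with miR-135a by both probes (-1.13 and -1.12). SAMD9L, a translation-blocking antiviral protein, was called lower in 8 of 11 groups, miR-544a included (-0.68).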
